A study of Mus musculus with 8 samples.

Results

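The genes described here encode the nuclear subunits of oxidative phosphorylation, measured in 8 wild-type whole mouse embryos at embryonic day 8.5. Members were all array probes whose RefSeq transcript carries a symbol beginning Nduf (without the Ndufaf assembly factors), Uqcr, Cox4 to Cox8 or Atp5, which gave 81 genes on 108 probes out of 20660 genes and 55681 different probes. There were 38 genes for complex I, 8 for complex III, 18 for complex IV and 17 for complex V. The rule used names only and no measured value.

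By the labels all embryos came from wild-type C57bl6/129 mothers, whereas a legend of the study names C57BL/6J mothers. In 1 group (n = 4 embryos) the father was wild type (WT, Eed wt/wt), and in the other (n = 4) the father was heterozygous (HET, Eed hypo/wt) for Eed l7Rn5-1989SB, a chemically induced hypomorphic allele of Eed on the same C57bl6/129 background. EED is a core component of Polycomb Repressive Complex 2, which methylates lysine 27 of histone H3. The comparison asks whether an Eed allele that a father carries but does not pass on leaves a trace in the transcripts of the offspring. Each group held 2 female and 2 male embryos, and each embryo was hybridised to 1 one-colour array. The 2 father groups were run on different slides, and an effect of the slide cannot be told apart from one of the father. The embryo codes share a first part for 3 of the WT-father embryos (WT2, WT3 and WT4), and the labels do not say which embryos share a father or a litter. A legend of the breeding plan names fewer fathers than embryos in each group. The legend that names C57BL/6J mothers gives n = 4 for each genotype of father, without saying whether fathers or embryos are counted. Some embryos may therefore share a father, and p-values measure the spread between these embryos.

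Oxidative phosphorylation couples electron transport to the synthesis of ATP in the inner mitochondrial membrane. Complex I takes electrons from NADH and complex III takes them from ubiquinol, cytochrome c carries them on to complex IV, which reduces oxygen, and complex V (ATP synthase) lets the pumped protons back in to make ATP. Most subunits are encoded in the nucleus, their transcripts are made by nearly all cells, and several subunits of complex IV exist as general and tissue-restricted isoforms. Binding sites for NRF1, GABP and YY1 are known from the promoters of many of these genes.

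The window from 250 bases before to 50 bases after the start site was held by RefSeq (GRCm38.p6) for 66 of the 81 genes. The letters GCGCATGCG (NRF1) stood on either strand in the windows of 8 of these genes, or 12.1%, and in 1.95% of all 27025 genes with a window. CCGGAAG (GABP) was found for 15 genes, or 22.7%, against 9.93% of all genes, and AAGATGGCG (YY1) for 7, or 10.6%, against 1.64%. At least 1 of the 3 motifs was present for 25 members (37.9% against 12.7% of all genes), namely 11 of 33 in complex I, 3 of 5 in complex III, 3 of 13 in complex IV and 8 of 15 in complex V. The NRF1 letters overlap their own reverse complement in GCGCATGCGC, which was counted once per gene. Of the 5 members with at least 2 motifs, 1 promoter each of complexes III, IV and V is printed below, 5′ to 3′ on the gene's strand, with NRF1 and GABP matches in capitals.

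Uqcr11 (chr10:80406772-80407071, minus strand): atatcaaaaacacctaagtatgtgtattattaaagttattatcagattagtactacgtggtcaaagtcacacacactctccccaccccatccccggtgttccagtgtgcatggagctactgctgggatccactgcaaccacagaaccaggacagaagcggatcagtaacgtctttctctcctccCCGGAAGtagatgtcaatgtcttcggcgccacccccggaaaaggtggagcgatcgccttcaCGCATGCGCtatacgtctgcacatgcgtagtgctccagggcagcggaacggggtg

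Cox6a1 (chr5:115348909-115349208, minus strand): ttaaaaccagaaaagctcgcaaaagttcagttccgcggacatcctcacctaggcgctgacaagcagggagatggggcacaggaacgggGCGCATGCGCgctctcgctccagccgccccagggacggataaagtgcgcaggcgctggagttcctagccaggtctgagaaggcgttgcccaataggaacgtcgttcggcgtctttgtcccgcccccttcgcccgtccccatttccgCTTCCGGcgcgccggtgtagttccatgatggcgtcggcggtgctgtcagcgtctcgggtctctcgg

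Atp5k (chr5:108434350-108434649, minus strand): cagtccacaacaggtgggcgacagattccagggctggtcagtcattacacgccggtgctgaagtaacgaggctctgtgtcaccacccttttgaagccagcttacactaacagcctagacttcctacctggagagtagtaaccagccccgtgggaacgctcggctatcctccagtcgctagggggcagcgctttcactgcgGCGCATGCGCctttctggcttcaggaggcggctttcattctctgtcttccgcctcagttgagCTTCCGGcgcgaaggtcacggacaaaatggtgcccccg

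In Cox6a1 and Atp5k the NRF1 match lay upstream of the GABP match, and in Uqcr11 the NRF1 letters ran across the start site. The next 2 promoters belong to the members with the smallest p-values between father groups, Cox6b2 and Ndufa3. Neither holds an exact match to the letters of the 3 motifs, and near matches were not searched for. The Ndufa3 window holds aagatggcc, which differs from the YY1 letters only in its last base.

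Cox6b2 (chr7:4753045-4753344, minus strand): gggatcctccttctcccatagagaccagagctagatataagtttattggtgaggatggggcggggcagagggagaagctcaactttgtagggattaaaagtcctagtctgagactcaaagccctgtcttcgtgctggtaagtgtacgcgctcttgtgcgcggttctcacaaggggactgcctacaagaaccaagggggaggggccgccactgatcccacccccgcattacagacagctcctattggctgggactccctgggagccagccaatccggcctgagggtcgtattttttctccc

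Ndufa3 (chr7:3617123-3617422, plus strand): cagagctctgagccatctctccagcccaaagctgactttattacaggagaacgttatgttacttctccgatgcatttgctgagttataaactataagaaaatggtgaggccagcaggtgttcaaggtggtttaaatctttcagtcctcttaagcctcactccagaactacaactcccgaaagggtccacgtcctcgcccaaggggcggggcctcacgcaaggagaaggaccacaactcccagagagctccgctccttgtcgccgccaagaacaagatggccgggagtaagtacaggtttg

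Signals were read as log2 of the processed spot intensity minus the 75th percentile of its array, and each gene was represented by its brightest probe. All levels below are on this scale, on which a difference of 1 is a factor of 2. Of the 81 genes, 78 were well above background on all 8 arrays and were tested. The testis and muscle isoforms Cox7b2, Cox8b and Cox8c were not well above background on any array. None of the members' spots was saturated. On each array between 29204 and 39545 of the probes were well above background, with the highest counts in WT1 (39545) and HET3 (38888). HET4 had the lowest count and a median background of 133, against 30 to 32 in HET1 to HET3 and 50 or 51 with WT fathers. Negative control spots had a median log2 signal, before the shift, of 2.08 to 2.31 with WT fathers and 2.50 to 3.17 with HET fathers. The part of these array traits in the differences was not tested. All 6 markers of the embryo (among them T, Tbx6 and Hoxb1) and all 6 of the heart tube were above background on every array. Of 4 decidua and trophoblast markers on the array, 3 were above background on all arrays and Tpbpa on none, and their summed level was 2.28 to 3.04 in embryos of WT fathers and -1.17 to 1.45 in embryos of HET fathers. These ranges do not overlap, but the sum adds unlogged signals, so the brightest marker, Prl8a2, weighs most. Prl8a2 was at 1.56 to 2.92 with WT fathers and -2.61 to 0.72 with HET fathers. Such groups without overlap made up 3.16% of all tested probes. The groups overlapped for Prl3d1 (-0.81 to 0.83 and -2.99 to 0.03) and for Gzmc (-4.11 to -3.01 and -4.89 to -2.79). Summed levels overlapped between the groups for primitive erythroid markers (8.86 to 10.04 with WT fathers and 9.49 to 9.83 with HET fathers) and for yolk sac endoderm markers (8.06 to 8.68 and 8.45 to 8.53). The part of maternal or placental tissue in the differences between father groups was not tested.

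Transcripts of the oxidative phosphorylation subunits stood at nearly the same level in the offspring of both kinds of father. No member passed the study's threshold of an adjusted p under 0.01 and a 2-fold change in limma, and neither did any of the 33096 tested probes (0%). At an unadjusted p under 0.05 there were 2 members (2.56%), Cox6b2 and Ndufa3, against 4.35% of all tested probes. Both were higher with HET fathers. Of all tested probes, 2% had such a p and were higher, as part of the 4.35% with such a p in either direction. Without WT2, WT3 or HET2 no member had such a p, and without HET3 there were 4 (all tested probes 9.36%). The log2 difference (HET minus WT fathers) ran from -0.19 for Ndufc2 to 0.34 for Cox6a2, with a median of 0.03 against 0.00 over all tested probes. It was within 0.1 of 0 for 63 members (80.8%) and for 48.5% of all probes, and within 0.2 for 76 members.

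The intervals show how large a change could have been missed. For 76 of the 78 members the 95% interval of the difference lay within 1.5-fold in either direction, which was so for 60.7% of all tested probes, and for all 78 it lay within 2-fold. Cox6a2 was among the exceptions at 1.5-fold. These bounds hold relative to the 75th percentile of each array. With alignment on the array medians, which varied more between embryos, 0 of the 78 intervals lay within 1.5-fold. With a random block for the embryo code 73 of the 78 intervals lay within 1.5-fold.

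More members were higher than lower with HET fathers, 52 against 26 (66.7% higher, against 49.9% of all probes). The split was 43 to 35 after background correction and quantile normalization, and 41 to 37 without HET3. Aligning arrays on their medians moved the median of all tested probes to -0.10 and left 11 members higher and 67 lower, so the sign of these small differences depends on the scaling. Relative to the median of all probes, 52 of 78 members were higher under either alignment, 41 of 78 without HET4 and 26 of 81 without the filter on dim probes.

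**Figure D1:**
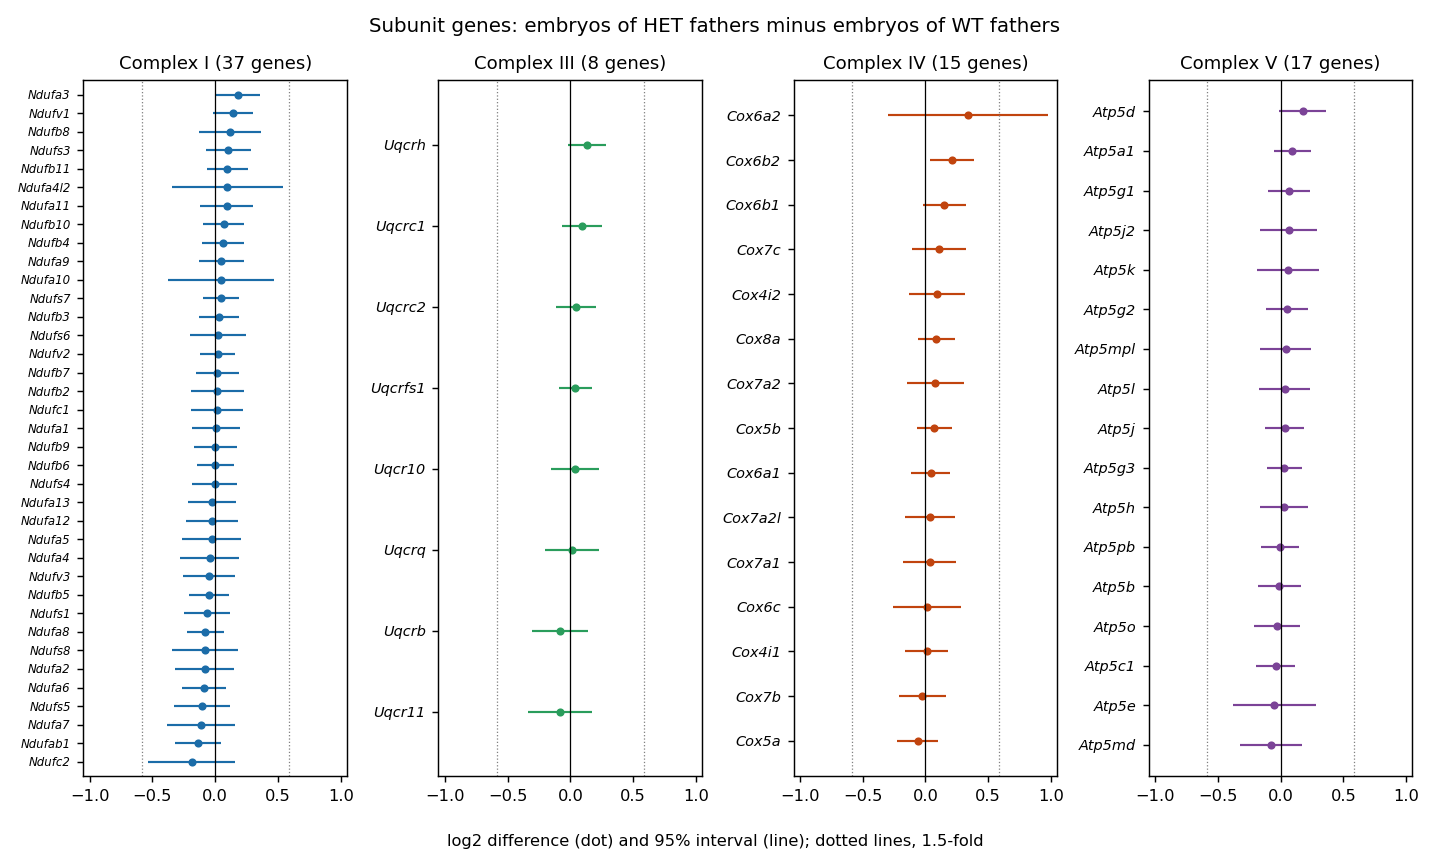
Log2 difference between embryos of HET and WT fathers for 77 tested subunit genes, by complex (x axis, dot with 95% interval from limma; y axis, genes in order of their difference). Dotted lines mark 1.5-fold; the interval of Cox6a2 crosses one of them and the other 76 lie between them.

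Complex I, the NADH dehydrogenase, had 22 of its 38 genes higher and 16 lower with HET fathers, with a median difference of 0.01. Among the 3 core subunits that oxidise NADH, Ndufv1, which binds the flavin cofactor and NADH, had levels of 5.64, 5.57, 5.65 and 5.54 in WT1 to WT4 and of 5.78, 5.80, 5.79 and 5.63 in HET1 to HET4. HET4 fell within the WT-father range, and the difference was 0.15 (95% interval -0.01 to 0.30). Ndufs1, the iron-sulphur subunit of the same arm, was 0.07 lower (interval -0.25 to 0.11) and Ndufv2 was 0.02 higher (interval -0.12 to 0.16).

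Core subunits of the arm that passes electrons to ubiquinone include Ndufs3, Ndufs7 and Ndufs8, of which Ndufs7 and Ndufs8 hold iron-sulphur clusters. Ndufs3 differed by 0.10 (interval -0.08 to 0.28), Ndufs7 by 0.05 (interval -0.10 to 0.19) and Ndufs8 by -0.08 (interval -0.34 to 0.18). Ndufs7 varied by 0.15 over the 8 embryos, and Ndufs8 stood between 2.65 and 2.76 in all embryos but HET3, at 2.31.

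Accessory subunits surround this core. Of the 13 in the A series, 5 were higher and 8 lower with HET fathers, and of the 12 in the B and C series 10 were higher and 2 lower. Ndufa3, a small membrane subunit, measured 5.52, 5.39, 5.34 and 5.51 in WT1 to WT4 and 5.52, 5.61, 5.69 and 5.67 in HET1 to HET4. The embryos of HET fathers were at the top of the range or above it, by 0.18 on average (limma interval 0.01 to 0.36, unadjusted p = 0.0445), and the adjusted p was 1.00 as for every other member.

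Ndufab1, the mitochondrial acyl carrier protein that also sits in complex I, went the other way. Its levels were 2.44, 2.20, 2.16 and 2.23 with WT fathers and 2.08, 2.10, 2.15 and 2.16 with HET fathers. The groups did not overlap, but HET4 and WT3 touched at 2.16, and the interval of -0.32 to 0.05 included 0. Ndufc2 had the lowest difference, -0.19, with 5.43, 5.30, 5.01 and 5.38 against 4.75, 5.11, 5.28 and 5.23. Its groups overlapped, and HET1 and WT3 were the lowest embryos.

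Among the S and V series of accessory subunits 1 gene was higher and 3 were lower, between -0.10 for Ndufs5 and 0.02 for Ndufs6. Ndufa4, a subunit now counted with complex IV, differed by -0.04. Its relative Ndufa4l2, known as a target of the hypoxia response, was among the most variable members. It measured -0.04, 0.48, 0.12 and 0.79 in WT1 to WT4 and 0.53, 0.60, 0.26 and 0.35 in HET1 to HET4, a difference of 0.10 with an interval of -0.35 to 0.54.

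Complex III, the cytochrome bc1 complex, was represented by 8 genes, 6 higher and 2 lower, with a median difference of 0.04. The core proteins and the Rieske iron-sulphur protein were all slightly higher with HET fathers, by 0.09 for Uqcrc1, 0.04 for Uqcrc2 and 0.04 for Uqcrfs1, and each interval included 0. Uqcrfs1 had the smallest spread within groups of all members, at an SD of 0.03, and varied by 0.11 over the 8 embryos. Uqcrh, the acidic hinge protein near the cytochrome c1 site, measured 6.88, 6.81, 6.74 and 6.87 in WT1 to WT4 and 6.91, 6.92, 7.03 and 6.95 in HET1 to HET4. All embryos of HET fathers lay above all embryos of WT fathers, by 0.13 on average (interval -0.02 to 0.28), and the gene's other probe differed by 0.10. Uqcr11 and Uqcrb, small membrane subunits, were each 0.08 lower.

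The groups failed to overlap for 3 members in all, Uqcrh and Cox6b2 (higher) and Ndufab1 (lower), which is 3 of 78 against 3.16% of all tested probes without missing values. This is close to the background.

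Complex IV, cytochrome c oxidase, had 13 of 15 tested genes higher with HET fathers (49.9% of all tested probes were higher) and a median difference of 0.07. The signs depended on the scaling. With arrays aligned on medians Cox4i1, Cox6a1 and Cox8a were lower (-0.09, -0.06 and -0.02), while Cox6b1 stayed higher (0.05). The general subunits of complex IV are made in nearly all tissues. Cox4i1, needed for assembly of the enzyme, differed by 0.01 (interval -0.16 to 0.18) and Cox6a1 by 0.04 (interval -0.11 to 0.20). Cox5a, at -0.06, and the X-linked Cox7b, at -0.03, were the 2 lower ones. Cox6b1, which links the monomers of the enzyme dimer, measured 3.18, 3.17, 3.18 and 3.10 in WT1 to WT4 and 3.34, 3.40, 3.16 and 3.35 in HET1 to HET4. HET3 fell among the embryos of WT fathers while the other 3 lay above them, and the difference was 0.15 (interval -0.02 to 0.32).

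Of the 7 tissue isoforms, 4 were measurable and all 4 had a positive difference. With arrays aligned on medians Cox6a2 (0.23) and Cox6b2 (0.11) stayed higher, and Cox4i2 (-0.01) and Cox7a1 (-0.07) were lower. Cox6b2, the testis form of Cox6b, measured -0.48, -0.57, -0.55 and -0.52 in WT1 to WT4 and -0.45, -0.18, -0.33 and -0.32 in HET1 to HET4. The groups did not overlap, although HET1 came within 0.03 of WT1, and the difference of 0.21 had an interval of 0.03 to 0.38 (limma, unadjusted p = 0.0248). Of 4 germ cell and testis markers 2 were above background on all arrays and Dazl on none, and their summed level was -0.92 to -0.54 with WT fathers and -0.96 to -0.14 with HET fathers. Cox6a2, the heart and skeletal muscle form, had the highest difference of all members at 0.34, but also the widest interval, -0.30 to 0.97. Its levels were -1.40, -1.55, -1.82 and -1.59 with WT fathers and -1.18, -1.04, -0.73 and -2.06 with HET fathers, so that 3 embryos of HET fathers were the highest and the remaining one the lowest of all 8.

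Cox4i2, the lung form, differed by 0.09 (interval -0.13 to 0.32) and Cox7a1, the heart and muscle form, by 0.03 (interval -0.18 to 0.24). The heart tube markers had summed levels of 7.20 to 7.26 with WT fathers and 7.17 to 7.37 with HET fathers. Fewer cells of a type and less RNA per cell cannot be told apart in whole embryos. Cox7b2, Cox8b and Cox8c gave signals under background, which set only an upper limit, and no fold is given for them.

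**Figure D2:**
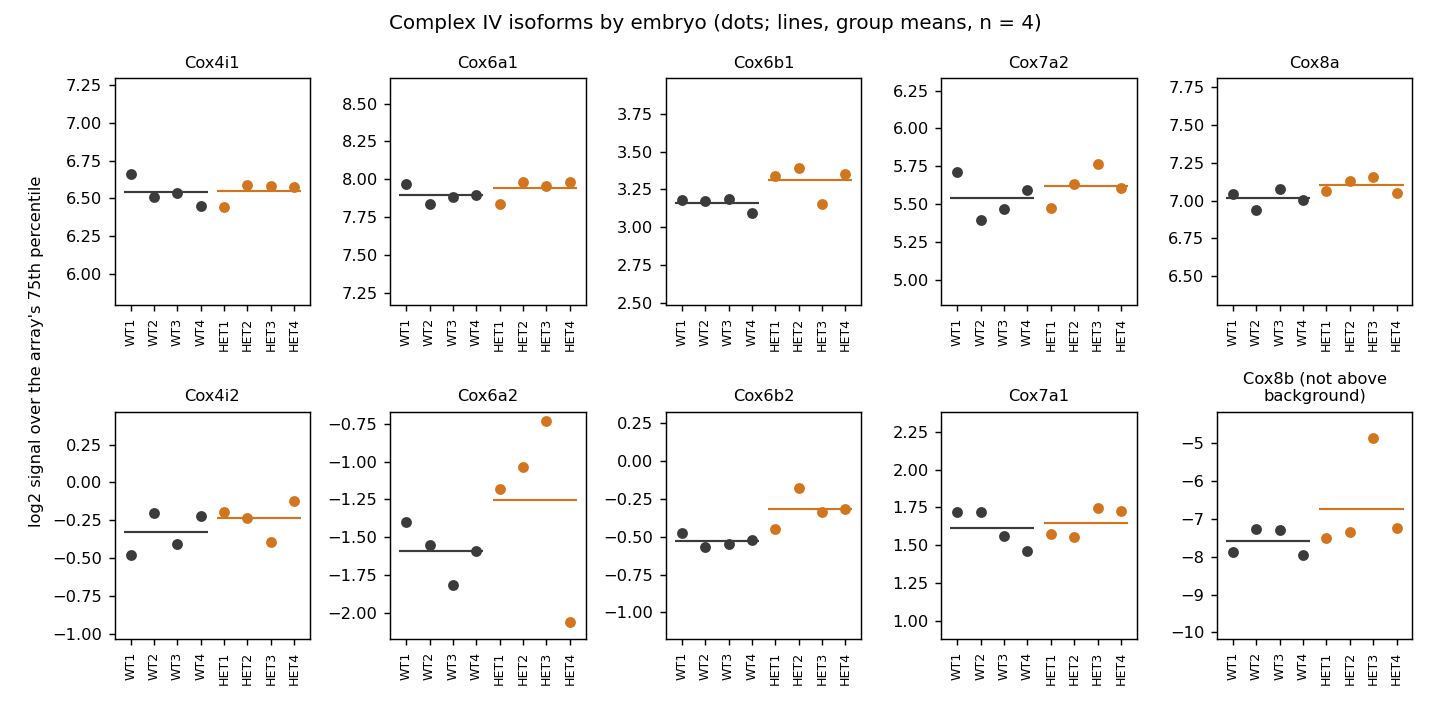
Levels of 10 complex IV isoforms in each embryo (y axis, log2 signal over the array's 75th percentile; dots, embryos of WT fathers in grey and of HET fathers in orange; lines, group means, n = 4). General forms are above and tissue forms below; each panel has its own axis, which spans 1.5 log2 units except for Cox8b. Cox6b2 is the panel in which the groups do not overlap, and Cox6a2 has its 3 highest and its lowest values in embryos of HET fathers.

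Complex V had 11 of 17 genes higher and 6 lower, with a median of 0.03. In the F1 head Atp5a1 and Atp5b form the catalytic ring. Atp5a1 differed by 0.09 (interval -0.05 to 0.24) and Atp5b by -0.01 (interval -0.18 to 0.16). Atp5d, a subunit of the central stalk, had the highest difference of the complex at 0.17, with 4.73, 4.60, 4.71 and 4.55 in WT1 to WT4 and 4.84, 4.86, 4.92 and 4.67 in HET1 to HET4. HET4 lay within the WT-father range and the interval was -0.02 to 0.36. Atp5e, another stalk subunit, differed by -0.05 and ran from 5.68 in HET1 to 6.25 in WT1.

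The c ring, which turns as protons pass, is built from 1 protein encoded by 3 genes, Atp5g1, Atp5g2 and Atp5g3. They differed by 0.06, 0.05 and 0.03, and each interval included 0. Atp5g3 had the narrowest range over the 8 embryos of all tested members, 0.10. The 4 peripheral stalk genes lay between -0.03 for Atp5o and 0.03 for Atp5j. The 5 small membrane subunits lay between -0.07 for Atp5md and 0.06 for Atp5j2.

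The embryos varied little at these genes. The pooled SD within father groups had a median of 0.09 over the members, against 0.21 over all tested probes and 0.10 over the 1098 tested probes in the middle range of the members' brightness. The members' low spread was therefore close to that of other probes of like signal. Over the 8 embryos 70 members varied by less than 0.5, and 4 had a pooled SD over 0.25, among them Cox6a2, Ndufa4l2 and Ndufa10.

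In some embryos most members lay on the same side of their 8-embryo mean. Of the 78 members, 53 were above it in WT1 and 58 in HET3, against 21 in WT2, 20 in WT3 and 25 in HET1. In WT4, HET2 and HET4 the counts were 34, 45 and 51. The mean deviation of the 78 members from their 8-embryo mean was 0.05, -0.04, -0.06 and -0.00 in WT1 to WT4 and -0.05, 0.04, 0.05 and 0.02 in HET1 to HET4. WT1 was the highest embryo for 27 members and HET3 for 17, while HET1 was the lowest for 21 and WT3 for 18. The median of all tested probes moved the same way in these 4 embryos, by 0.06 in WT1, 0.10 in HET3, -0.07 in HET1 and -0.03 in WT3. In WT4, HET2 and HET4 the median of all tested probes moved the other way from the members, by 0.02, -0.01 and -0.02. The part of the array-wide shift in the members' movement was not tested. In HET3 complexes III, IV and V deviated by 0.09, 0.11 and 0.09 and complex I by 0.00, a difference that was not tested. Even so, 25 of the 38 complex I genes were above their mean in HET3. It was the lowest embryo for 8 of them, among these Ndufa10 and Ndufs8.

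**Figure D3:**
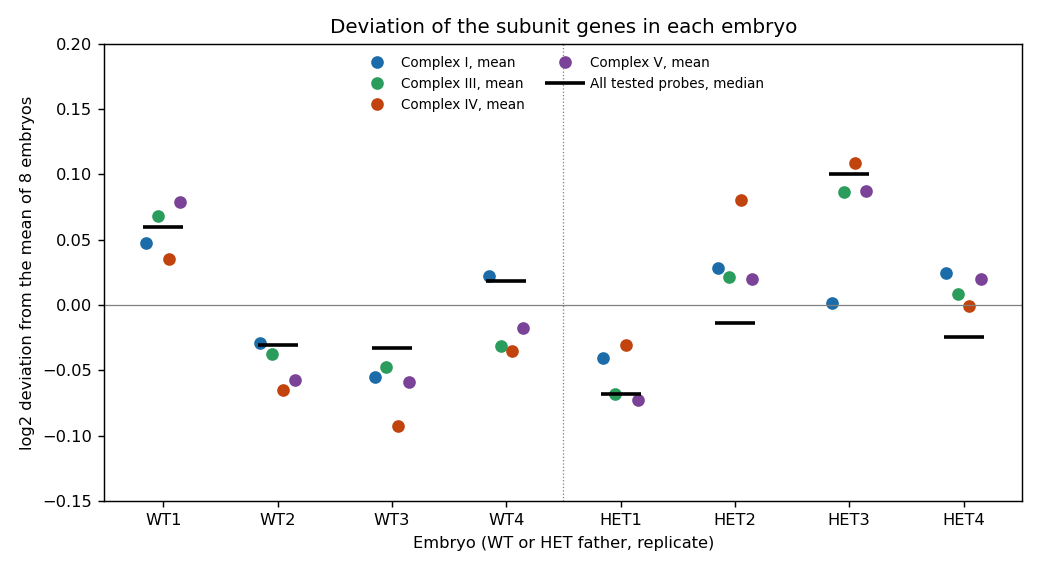
Mean log2 deviation of the tested members of each complex from the mean of the 8 embryos (y axis; coloured dots) in each embryo (x axis), with the median deviation of all 33096 tested probes (black bars). WT1 and HET3 are high and WT3 and HET1 are low for most complexes. The mean of complex I is at 0.00 in HET3, below the other complexes, although 25 of its 38 genes were above their mean there.

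Probes of the same gene did not always follow each other. The 20 members with more than 1 probe had 47 probes, and their differences between father groups lay at most 0.21 apart within a gene, with a median of 0.05. The widest gap was in Cox7a2l, which encodes a factor that joins complexes III and IV into supercomplexes. Its brightest probe measured 5.84, 5.77, 5.76 and 5.86 in WT1 to WT4 and 5.86, 5.90, 5.97 and 5.65 in HET1 to HET4. Its dimmest probe measured 2.68, 2.91, 3.49 and 2.78 and then 3.67, 3.59, 2.58 and 3.01. The dimmest probe was high in WT3, HET1 and HET2 and low in WT1, WT4 and HET3, over a range of 1.09, while the brightest varied by 0.32.

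The same embryos stood apart at other members. The dimmer probe of Ndufb5, a membrane-arm subunit of complex I, gave 1.52, 1.69, 2.09 and 1.60 in WT1 to WT4 and 2.07, 2.00, 1.48 and 1.65 in HET1 to HET4, while its brighter probe varied by 0.20. Ndufa10, an accessory subunit with 1 probe, gave 2.87, 3.20, 3.22 and 2.88 and then 3.29, 3.27, 2.59 and 3.19. In these 3 probes the lowest embryos were WT1, WT4 and HET3, which are the 3 arrays with the most probes above background (35499 to 39545, against 29204 to 33509 in the other 5). The part of the array in this pattern was not tested, and it lies across both father groups.

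**Figure D4:**
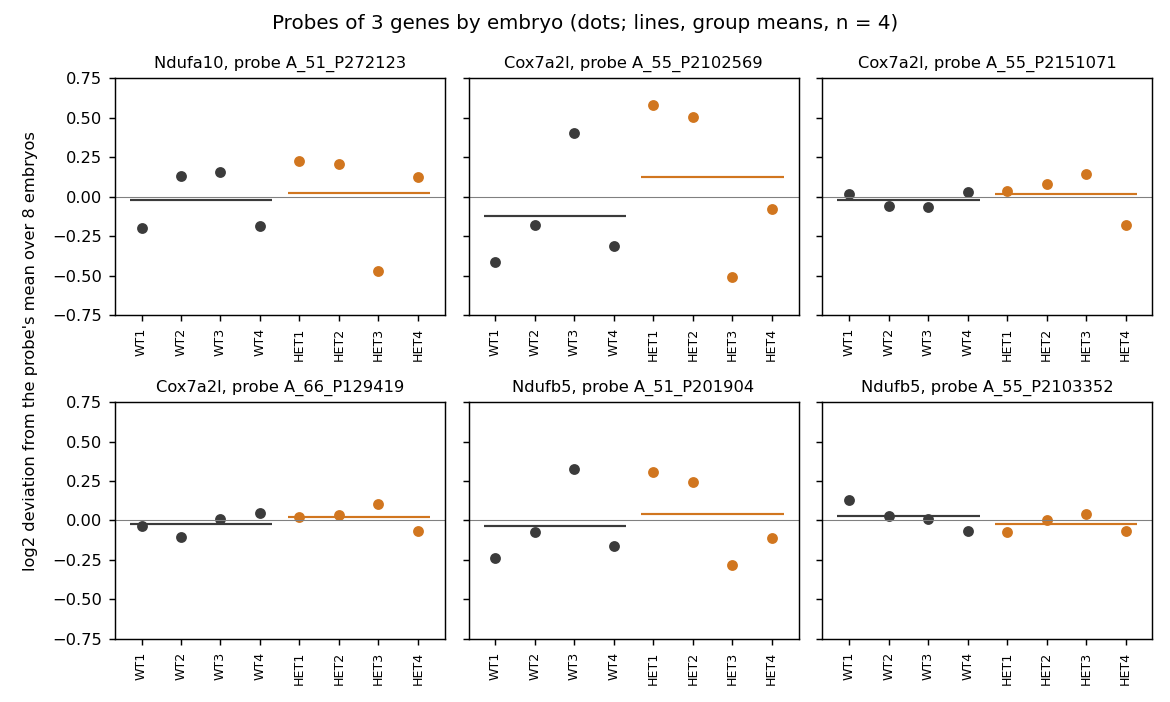
Deviation of 6 probes of Ndufa10, Cox7a2l and Ndufb5 from the probe's 8-embryo mean (y axis, log2) in each embryo (x axis; grey, WT father; orange, HET father; lines, group means, n = 4). Ndufa10 and 1 probe each of Cox7a2l and Ndufb5 are low in WT1, WT4 and HET3, while the other probes of Cox7a2l and Ndufb5 stay close to 0.

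No difference between female and male embryos passed the test at these genes. With father in the limma fit no member passed the threshold of adjusted p under 0.01 and 2-fold, against 11 of all tested probes (0.0332%). No member reached an unadjusted p under 0.05 either, against 3.27% of all probes. The lowest difference (female minus male) was -0.31 for Cox6a2, and 74 of 78 intervals lay within 1.5-fold.

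The X chromosome carries 3 of the members. Cox7b, a small subunit of complex IV, measured 6.28, 6.10, 6.09 and 6.27 in the females WT1, WT3, HET2 and HET4 and 6.15, 6.20, 6.04 and 6.23 in the males WT2, WT4, HET1 and HET3. Ndufa1, needed to assemble complex I, measured 5.57, 5.36, 5.43 and 5.46 in females and 5.45, 5.56, 5.44 and 5.64 in males. Ndufb11, a membrane-arm subunit, measured 6.05, 5.93, 6.10 and 6.18 in females and between 5.97 (WT2) and 6.14 (HET3) in males. The sexes overlapped in all 3 genes. The differences were 0.03 (interval -0.18 to 0.23), -0.07 (interval -0.27 to 0.13) and 0.01 (interval -0.17 to 0.20), so that on this scaling a difference of 2-fold lies outside each interval. The 767 tested probes of X-linked genes had a median difference of -0.03.

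**Figure D5:**
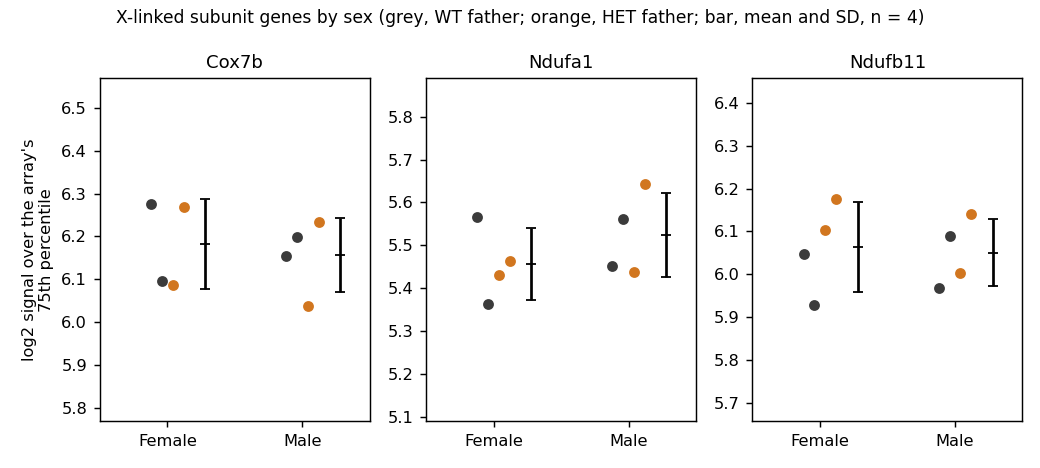
Levels of the X-linked members Cox7b, Ndufa1 and Ndufb11 in female and male embryos (y axis, log2 signal over the array's 75th percentile; dots, embryos of WT fathers in grey and of HET fathers in orange; bars, mean and SD, n = 4 per sex). Females and males overlap in each gene.

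Other genes of the pathway, which the naming rule does not cover, were read in the same way. None of them passed the threshold between father groups. The 4 genes of complex II, which feeds electrons from succinate, lay between -0.04 and 0.08. Cytochrome c itself (Cycs) differed by -0.04, and Cyct by 0.70 (limma, unadjusted p = 0.475) at levels between -5.73 and -1.92. Cyc1, the cytochrome c1 of complex III, is a subunit whose symbol lies outside the rule. It measured 4.98, 4.99, 5.70 and 4.97 in WT1 to WT4 and 6.08, 5.87, 5.28 and 5.36 in HET1 to HET4. Cyc1 was highest in HET1, HET2 and WT3, the embryos in which the dimmest Cox7a2l probe was high, and its difference of 0.49 had an unadjusted p of 0.0827 in limma. That difference was larger than the highest of the members, 0.34 for Cox6a2.

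Of 38 tested assembly factors 2 were higher and 1 was lower at an unadjusted p under 0.05, which 4.35% of all tested probes reached. Sco2, a copper chaperone of complex IV, measured 1.93, 1.74, 1.89 and 1.77 with WT fathers and 2.12, 1.97, 2.17 and 1.96 with HET fathers, a difference of 0.22. Coa6, another factor in copper delivery to complex IV, measured 2.02, 2.08, 2.01 and 2.08 and then 2.20, 2.19, 2.23 and 2.24, a difference of 0.17. Tmem126b, a complex I assembly factor, measured -0.09, -0.13, -0.37 and -0.35 and then -0.47, -0.56, -0.60 and -0.49, a difference of -0.29. In all 3 genes the groups did not overlap. These genes were picked by their p in the same values, which favours groups that do not overlap. The 3.16% over all tested probes is therefore not a like comparison. The median over the assembly factors was 0.04.

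The 16 listed regulators comprised nuclear transcription factors and coactivators (such as Nrf1) and proteins that transcribe or copy mitochondrial DNA (such as Tfam and Polg). Of these genes 1 was higher at this p and none lower, against 4.35% of all tested probes in either direction. This was Pprc1, a coactivator related to PGC-1, at 0.16, 0.25, 0.17 and 0.44 with WT fathers and 0.49, 0.61, 0.55 and 0.52 with HET fathers. Its groups did not overlap, but this gene too was picked by its p, and the difference was 0.29. Among 16 genes of the TCA cycle and pyruvate dehydrogenase only Pdhb was higher at this p, by 0.22. The TCA cycle genes deviated by -0.11, -0.09 and -0.13 in WT1, WT4 and HET3 and by 0.08, 0.08 and 0.09 in WT3, HET1 and HET2. Of 6 uncoupling and hypoxia genes 4 had a positive difference, and only Ucp1 was higher at this p, by 0.52, at levels between -3.65 and -2.42. The adjusted p was 1.00 for each of these genes.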

How the data were processed

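RNA from 8 single whole embryos was labelled with Cy3 and hybridised to Agilent SurePrint G3 mouse arrays (the study's RNA quality limit was a RIN over 8). The deposited intensity values were made by the authors with Feature Extraction 11.0.1.1 as background-subtracted, spatially detrended signals, and probe positions refer to mm9. A deposited table of the whole series holds the same intensity values rounded. The study shifted arrays by a percentile and left out dim probes, called genes at 2-fold and 0.01 after Benjamini-Hochberg adjustment, and does not name its test. The 75th percentile was used here.

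Control and outlier spots were removed, spots of a probe were averaged on the log2 scale, and 33096 probes were tested that were well above background on at least 4 of 8 arrays and not among the dimmest 20%. Two-sided tests used limma 3.58.1 in R 4.3.3 with father as the term (father and sex for the sex comparison), all probes in one fit, and Benjamini-Hochberg adjustment. The scripts were tested on simulated data. Of 28685 probes with a RefSeq transcript 27235 matched a symbol (GRCm38.p6 names), and the 13 protein-coding genes of mitochondrial DNA are not analysed here. Motifs were searched with Python 3.11.15. No column of sample values was left unused (0). The number of arrays limits the precision.

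The members, roles and other gene lists were chosen with earlier results of these data known. Named were members called in either comparison, the 2 highest and 2 lowest differences of each complex, X-linked members, tissue isoforms, listed core subunits, and members not above background. Ndufa10, Ndufb5 and the non-overlapping or variable genes outside that rule were named after their values were seen, as were the other pathway genes at an unadjusted p under 0.05. Alternatives covered normalization, filters, moderation, weights, covariates, probe choice and leaving out embryos. Of the tested members, 1 is counted but its values are not reported here.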

Additional observations from a re-analysis of the deposited data

Results flagged for a closer look

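Within the groups of 4 embryos, 80 sets of 4 values (named members and complex means in each father group) were checked for 1 embryo far from the other 3. There were 5 such sets, and chance gives about 1 in 20, or 4. Cox4i1 was low in HET1 at 6.44, with the nearest embryo of its group at 6.57, a gap of 0.876 of the group's range. Cox6b1 was low in WT4 at 3.10 with the nearest at 3.17 (0.881 of the range). Ndufa1 was high in HET3 at 5.64 with the nearest at 5.46 (0.850 of the range). Ndufv1 was low in HET4 at 5.63 with the nearest at 5.78 (0.877 of the range). The mean of complex III deviated by 0.07 in WT1 with the nearest embryo at -0.03 (0.864 of the range). All 5 gaps are under 0.2 on the log2 scale.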

How the results depend on the processing

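Under 22 alternatives no member was called between father groups, and none between sexes. The 2 members at an unadjusted p under 0.05 (4.35% of all tested probes) became 8 with normexp and quantile normalization (all tested probes 7.93%), 6 with trended and robust moderation (4.49%), 6 with array weights (9.20%), 1 with quantile normalization alone (4.57%), 1 with sex in the fit, and 0 with arrays aligned on medians, without the filter on dim probes and with a random block for the embryo code. Leaving out 1 embryo at a time gave 0 (without WT2, WT3 or HET2) to 4 (without HET3, all tested probes 9.36%), and leaving out WT1 and HET3 together, chosen after seeing the data, gave 2 (7.07%). With medians aligned the members' median difference was -0.0718 (all tested probes -0.103) and the X-linked members' median difference between sexes was 0.161 (all tested probes 0.129, and 0.0315 apart as in the main alignment). The replicate numbers did not pair the embryos (correlations of -0.547, -0.0452, -0.587 and -0.149), and with the replicate block 0 members had an unadjusted p under 0.05. None of the 735 values of the tested named members under these alternatives passed the threshold. The share of members higher with HET fathers was 52.6% with the embryo code as a block and without HET3. The correlation of embryos sharing a code was 0.539 in the fit with that block, and the members' median difference was 0.0057. The main fit has no such block and treats the embryos as independent. The limits are 4 embryos per group, 1 slide per group, and for the dim isoforms the signal over background.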
